A study of Bos taurus with 6 samples.

Results

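Integrins that bind laminin and collagen were followed through 6 genes, ITGA1, ITGA2, ITGA3, ITGA6, ITGB1 and ITGB4, chosen by gene symbol and all found among the 20958 genes of the deposited table. RNA was sequenced from BEND, an established cell line labelled as bovine endometrial epithelium and grown in DMEM with fetal bovine serum. One group of 3 libraries came from cells transfected with a mimic of bta-miR-200b, a synthetic duplex that supplies the mature microRNA, and is labelled as its overexpression. The other 3 libraries came from cells that received a negative-control mimic, called NC here. Both groups also carry a treatment label that names apoptosis, without an agent, a dose or a time. A single line was used, and nothing says that each library of a group is a culture of its own, so the p-values rest on a spread between libraries that could be purely technical.

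An integrin is a heterodimer of 1 alpha and 1 beta chain that spans the plasma membrane and ties the extracellular matrix to the cytoskeleton. ITGA1 and ITGA2 are alpha chains of collagen receptors and ITGA3 and ITGA6 of laminin receptors, and all of these pair with ITGB1, the beta chain shared by many integrins. ITGA6 also pairs with ITGB4, whose long cytoplasmic tail binds plectin and so anchors keratin filaments at hemidesmosomes, the junctions that hold an epithelium to its basement membrane. In the endometrium, integrins link the epithelium to its basement membrane and take part in embryo attachment. Comparing the mimic with NC asks which of these chains change in abundance when miR-200b is raised.

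Library totals ranged from 19212694 to 21129547 counts. Levels are given as CPM, the read count divided by the TMM-scaled library size in units of 1e6 reads, which is not corrected for gene length, so levels of different genes are not compared. ZEB1, a repressor of E-cadherin and a textbook target of miR-200b, fell by 27.1% with the mimic (edgeR adjusted p = 0.0025). ZEB2, another such target, which overlaps a further annotated locus, did not pass, at a log2 fold change of −0.44 ± 0.16 (edgeR adjusted p = 0.12). Of 12 epithelial markers, 8 were tested, 6 rose and none fell, where 4.30% of all 12217 tested genes rose and 2.15% fell. Among the epithelial markers that rose, EPCAM and KRT7 passed the filter on low counts only through the mimic libraries. Of the 6 tested epithelial markers besides them 4 rose. KRT8, KRT18 and KRT19, keratins of simple epithelia, were abundant in every library, whereas EPCAM had 3 reads over the NC libraries, and CLDN4, a claudin of tight junctions, had none anywhere. The summed CPM of the epithelial markers was 10450 to 11870 in the mimic libraries and 8601 to 9316 in the NC libraries. Of 12 stromal markers, 3 fell and none rose, or 1 fell without mimic replicate 2 or NC replicate 3, and their summed CPM overlapped, at 25530 to 28370 with the mimic and 27380 to 28460 with NC. Collagen I and decorin, products of stromal cells, were thus present in all 6 libraries of a line labelled epithelial. Endothelial markers summed to between 5.998 and 6.149 CPM with the mimic and 6.64 to 8.01 CPM with NC, and leukocyte markers to 3.98 to 4.19 and 5.20 to 5.77 CPM, with PTPRC, the pan-leukocyte antigen, and CD3E at 0 throughout. None of 24 ribosomal protein genes, listed as a sign of RNA quality, had a log2 fold change above 0, their median was −0.15, and 2 fell, RPS23 and RPL12. The share called, 8.33%, was near the 6.45% over all tested genes. The number of ribosomal protein genes that fell depended on the setting, at 0 without mimic replicate 2 or NC replicate 1, 1 without NC replicate 2, 5 without NC replicate 3, 6 without mimic replicate 1, 6 with no filter on low counts, 4 by DESeq2 and 7 with the replicate number as a block. The part of RNA quality in the integrin changes was not tested.

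With the mimic, 3 of the 6 integrin chains rose and none fell. ITGB4 rose 3.22-fold, ITGA2 2.03-fold and ITGA3 1.51-fold, while ITGA1, ITGA6 and ITGB1 did not pass the test. Differences were tested with the quasi-likelihood F test of edgeR, two-sided, on all 12217 genes with enough reads, with p-values adjusted over all of them and called below 0.05. It called 6.45% of all tested genes, 4.30% higher and 2.15% lower. The 3 rises were called in each of 13 alternative settings, and the other 3 chains in none of them. By the size of the rise, ITGB4 stood at rank 47, ITGA2 at rank 98 and ITGA3 at rank 195 among the 525 genes called higher.

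**Figure D1:**
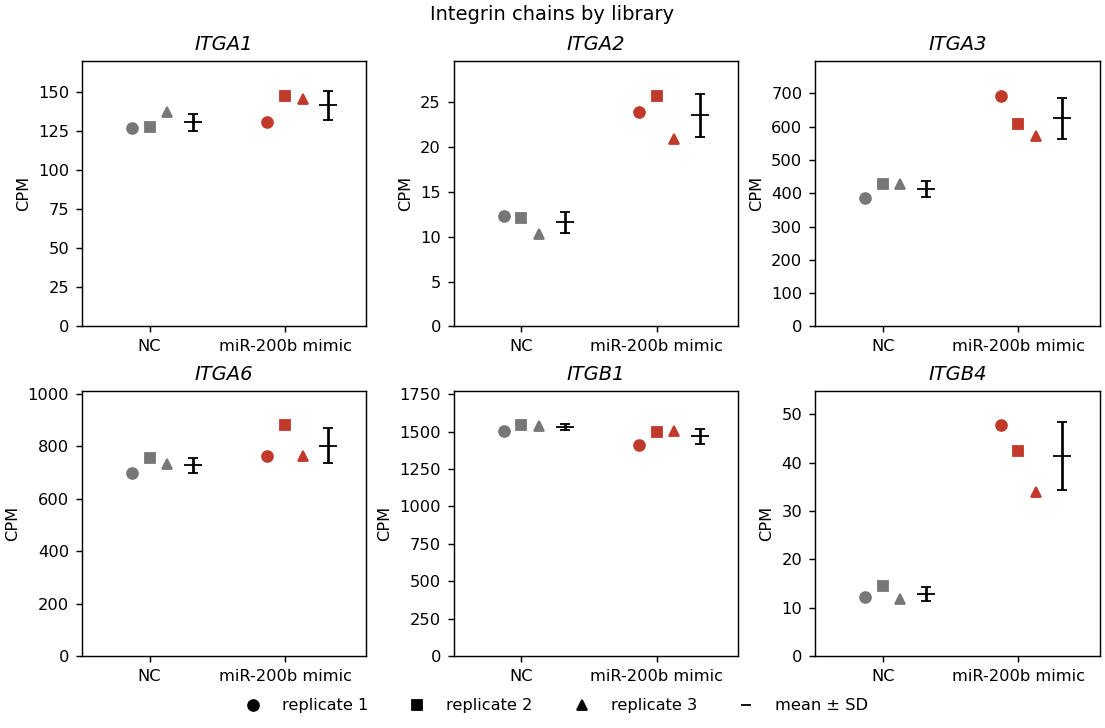
CPM of each of the 6 integrin chains (vertical axes, each from 0) in the 3 NC and 3 mimic libraries; symbols mark the replicate and black bars the mean ± SD of a group. The mimic libraries stand well above NC for ITGB4, ITGA2 and ITGA3, and near it for ITGA1, ITGA6 and ITGB1.

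ITGB4, the beta chain of the hemidesmosomal laminin receptor, had the largest fold change of the 6. It stood at 47.7, 42.5 and 34.0 CPM in mimic replicates 1 to 3, and at 12.2, 14.5 and 11.9 CPM in NC replicates 1 to 3. The groups did not overlap, and the lowest mimic library was 1.23 log2 units above the highest NC library. The mean rose from 12.9 ± 1.40 to 41.4 ± 6.95 CPM (SD, n = 3 per group), a log2 fold change of 1.69 ± 0.12 (SE) with a 95% interval of 1.44 to 1.93 and an edgeR adjusted p of 4.265e-10. ITGB4 also varied most within a group, with a coefficient of variation of 16.8% among the mimic libraries, where replicate 3 was lowest. In the same libraries the epithelial marker CDH1, which encodes E-cadherin, had a log2 fold change of 1.70 ± 0.10. The part of cell-type marker genes in the integrin changes was not tested, and in bulk RNA a change in the number of cells of a type cannot be told apart from a change in RNA per cell.

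ITGA6, the alpha chain that completes the hemidesmosomal receptor and also pairs with ITGB1, was at 763, 881 and 764 CPM in mimic replicates 1 to 3. In NC replicates 1 to 3 it was at 699, 755 and 732 CPM. The groups did not overlap, but the lowest mimic library lay above the highest NC library by only 0.015 log2 units. The log2 fold change was 0.14 ± 0.07 (95% interval −0.0068 to 0.29), with an edgeR adjusted p of 0.3. The interval reaches a 1.22-fold rise, well below the rise of ITGB4. Without mimic replicate 2, the highest library, the log2 fold change was 0.07.

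ITGA3, the laminin receptor alpha chain that pairs with ITGB1, was at 693, 608 and 572 CPM in mimic replicates 1 to 3 and at 386, 427 and 426 CPM in NC replicates 1 to 3. All mimic libraries were above all NC libraries. The mean rose from 413 ± 23.6 to 624 ± 61.7 CPM (SD, n = 3 per group), a log2 fold change of 0.60 ± 0.07 (SE, 95% interval 0.44 to 0.75) with an edgeR adjusted p of 8.022e-06.

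ITGB1, the partner of every alpha chain of the set, did not pass the test. It was at 1413, 1494 and 1501 CPM in mimic replicates 1 to 3 and at 1504, 1541 and 1537 CPM in NC replicates 1 to 3. All mimic libraries were below all NC libraries, with mimic replicate 3 and NC replicate 1 nearly level. The log2 fold change was −0.06 ± 0.06, with a 95% interval of −0.19 to 0.08 and an edgeR adjusted p of 0.721. That interval allows a change between 0.877-fold and 1.06-fold. The NC libraries differed least for this gene, with a coefficient of variation of 1.33%.

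ITGA2, an alpha chain of a collagen receptor of epithelia and platelets that can also bind laminin, rose. It was at 23.9, 25.7 and 20.9 CPM in mimic replicates 1 to 3 and at 12.3, 12.1 and 10.3 CPM in NC replicates 1 to 3. The groups were well apart, and replicate 3 was the lowest library of each. The mean rose from 11.6 ± 1.12 to 23.5 ± 2.41 CPM (SD, n = 3 per group), a log2 fold change of 1.02 ± 0.11 (SE, 95% interval 0.79 to 1.25) with an edgeR adjusted p of 1.013e-06. In the RefSeq gene table ITGA2 overlaps MOCS2, a gene of molybdenum cofactor synthesis, and whether strand was used in counting is unknown here. MOCS2 itself stood at a log2 fold change of 0.14 ± 0.09 (edgeR adjusted p = 0.444).

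ITGA1, the other collagen receptor alpha chain and the direct chromosomal neighbour of ITGA2, was at 131, 147 and 146 CPM in mimic replicates 1 to 3. In NC replicates 1 to 3 it was at 127, 128 and 137 CPM. Mimic replicate 1 lay below NC replicate 3, and ITGA1 was the single chain of the 6 whose groups overlapped. Over all tested genes, 21.8% had groups that did not overlap in either direction. The log2 fold change of ITGA1 was 0.12 ± 0.07 (95% interval −0.035 to 0.27; edgeR adjusted p = 0.437). ITGA1 overlaps PELO, a ribosome rescue factor, which stood at a log2 fold change of 0.07 ± 0.08 (edgeR adjusted p = 0.719).

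Because chains work in pairs, the ratio of the reads of 2 chains was also taken within each library, where no scaling between libraries enters. A ratio of reads also reflects gene length, so only its difference between groups is interpreted. The ratio of ITGB4 to its partner ITGA6 was 2.91-fold higher with the mimic, a difference of 1.54 in log2 ratio (mimic −4.29 ± 0.26, NC −5.83 ± 0.12, SD, n = 3 per group). The ratio of ITGB4 to ITGB1, the beta chains between which ITGA6 is shared, was 3.32-fold higher. Against ITGB1, their beta partner, ITGA2 was 2.11-fold and ITGA3 1.57-fold higher, while ITGA6 was 1.14-fold and ITGA1 1.13-fold higher.

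Alpha chains of the same ligand class were compared in the same way. The ratio of ITGA2 to ITGA1, the collagen receptor chains, was 1.87-fold higher with the mimic, from log2 ratios of −3.36, −3.39 and −3.73 in NC replicates 1 to 3 to −2.45, −2.52 and −2.80 in mimic replicates 1 to 3. That of ITGA3 to ITGA6, the laminin receptor chains, was 1.37-fold higher. The 8 ratios draw on 6 chains and most have ITGB1 as the second, so they are not independent of each other. For all 8 the mimic libraries lay above the NC libraries without overlap, a trait whose share over all pairs of genes was not computed. A two-sided exact permutation test gave p = 0.1 for each, also after adjustment over the 8. With 3 against 3 libraries this is the smallest p that the test can give, so none could pass 0.05.

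**Figure D2:**
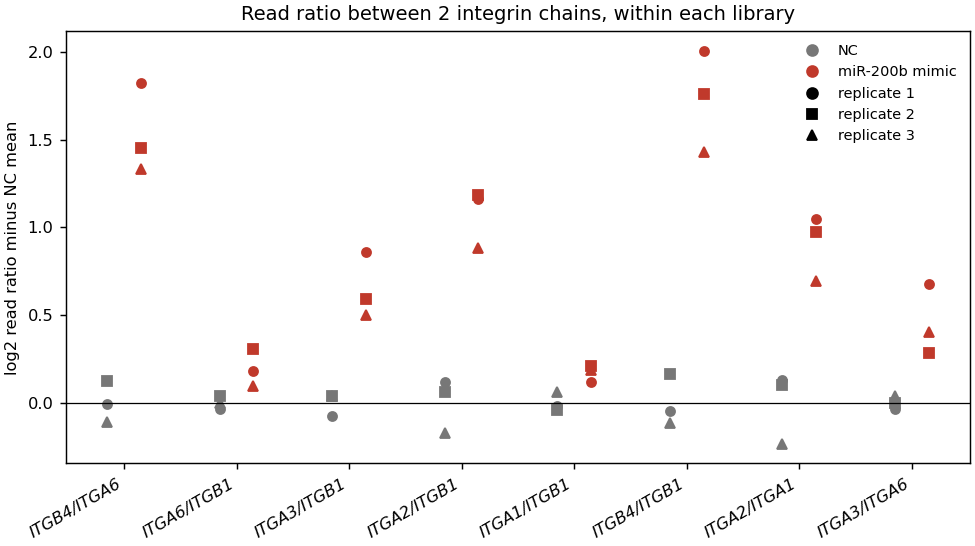
Log2 ratio of the reads of 2 integrin chains within each library, less the mean of the NC libraries (vertical axis, log2 units), for 8 pairs; grey is NC, red the mimic, and symbols mark the replicate. The pairs with ITGB4 or ITGA2 as the first chain show the widest gaps, and ITGA6/ITGB1 and ITGA1/ITGB1 the narrowest.

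Of the 20 other integrin chains in the table, 12 had enough reads to test, of which 1 rose, 1 fell and 10 did not pass. The share called was 16.7%, against 6.45% over all tested genes. The one that rose, ITGB6, passed the filter on low counts only through the mimic libraries, and under the stricter filter 11 chains were tested and 0 rose. ITGB6, the beta chain of an epithelial receptor for fibronectin and latent TGF-beta, was counted 15, 30 and 17 times in mimic replicates 1 to 3 and 0, 0 and 2 times in NC replicates 1 to 3. Corrected for depth, the exact 95% interval of that ratio was 7.97 to 254, covering counting error only. ITGA8, an alpha chain found on mesenchymal cells, fell from 2.67 ± 0.674 to 1.30 ± 0.258 CPM (SD, n = 3 per group), a call that was lost without mimic replicate 1, mimic replicate 2 or NC replicate 1, at edgeR adjusted p-values of 0.078, 0.0665 and 0.146. The remaining relatives with the same ligands did not pass in the main fit. ITGA10, a further collagen receptor chain, had a log2 fold change of 0.48 ± 0.15 (edgeR adjusted p = 0.0601), and ITGA7, a laminin receptor chain of muscle, −0.23 ± 0.09 (edgeR adjusted p = 0.159). ITGA10 was called with no filter on low counts and with the replicate number as a block, at edgeR adjusted p-values of 0.0456 and 0.0209. It was also called without mimic replicate 3 and without NC replicate 2, at edgeR adjusted p-values of 0.0468 and 0.0364. ITGA7 was called without NC replicate 2, at an edgeR adjusted p of 0.0174. ITGA11, the last of the collagen receptor chains, had no reads in any library. Without NC replicate 2, 2 of these chains were called higher and 4 lower. ITGA7 overlaps TMT1B.

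**Figure D3:**
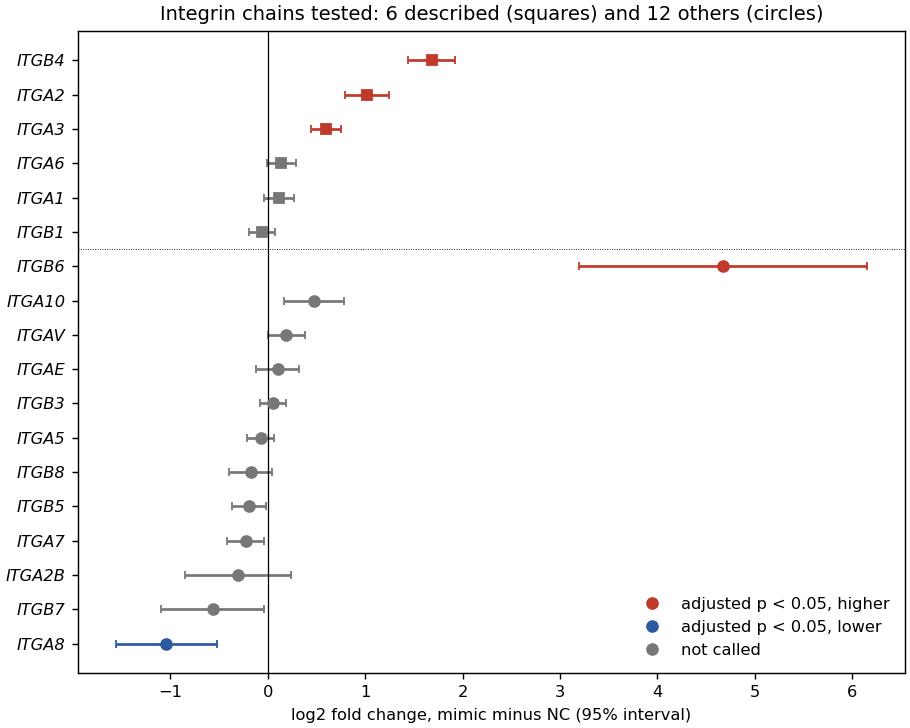
Log2 fold change of mimic over NC (horizontal axis) with its 95% interval for the 18 integrin chains tested, the 6 described above as squares and the 12 others as circles. ITGB4, ITGA2, ITGA3 and ITGB6 were called higher and ITGA8 lower. The intervals of ITGA10 and ITGAV also lie to the right of 0, and those of ITGA7, ITGB5 and ITGB7 to the left, without a call after adjustment. The fitted value of ITGB6 rests on 2 NC reads.

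Ligands of these receptors were read from lists of laminin and collagen chains. Of 8 tested laminin chains, 5 rose and none fell, with a median log2 fold change of 0.30 against 0.00090 over all tested genes. The share called was 62.5%, against 6.45% over all tested genes. LAMB3, a beta chain of epithelial laminin, was counted 33, 35 and 22 times in mimic replicates 1 to 3 and 1, 1 and 5 times in NC replicates 1 to 3 (edgeR adjusted p = 3.001e-05). It passed the filter on low counts only through the mimic libraries, and of the 7 tested chains besides it 4 rose. LAMA3, an alpha chain of epithelial laminin, named after its values were seen, stood at 75.6 ± 2.91 CPM with the mimic and 74.7 ± 3.93 CPM with NC (SD, n = 3 per group). LAMB1 rose 1.23-fold, LAMA4 1.32-fold and LAMA5, named after its values were seen, 1.23-fold. Without NC replicate 1 the number of laminin chains called fell to 3, with edgeR adjusted p-values of 0.0577 for LAMB1 and 0.227 for LAMA5. LAMA5 also missed the threshold without mimic replicate 1, at an edgeR adjusted p of 0.167.

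No collagen chain rose. Of 13 tested, 1 fell and 12 did not pass, with a median log2 fold change of −0.08. The share called, 7.69%, was near the 6.45% over all tested genes. The one that fell was COL4A6, a chain of basement membrane collagen, from 26.5 ± 2.07 to 19.9 ± 2.32 CPM (SD, n = 3 per group), and it lost its call without mimic replicate 2, NC replicate 1 or NC replicate 3, at edgeR adjusted p-values of 0.127, 0.0687 and 0.0808. The list had 0 lower calls without each of these libraries and 4 without mimic replicate 3. COL6A1, COL3A1 and COL6A3 had log2 fold changes of −0.20, −0.22 and −0.28 with edgeR adjusted p-values of 0.0834, 0.103 and 0.186. Of the collagen genes tested, 3 are also in the stromal marker list, whose median was −0.12.

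None of the 7 hemidesmosome partners passed in the main edgeR fit, and DESeq2 called 1 of them. In the main edgeR fit 3 had an unadjusted p under 0.05, as had 2263 of all 12217 tested genes. All 7 had a log2 fold change above 0, as had 6140 of all tested genes, and the median of the 7 was 0.16. ERBIN, which binds the tail of ITGB4, stood at 343 ± 22.3 CPM with the mimic and 292 ± 18.5 CPM with NC (SD, n = 3 per group; log2 fold change 0.23 ± 0.07, edgeR adjusted p = 0.0538), and was the one called by DESeq2, at an adjusted p of 0.0466. PLEC, the plectin that links ITGB4 to keratin, had a log2 fold change of 0.22 ± 0.08 (edgeR adjusted p = 0.133), and CD151, the tetraspanin of laminin-binding integrins, 0.16 ± 0.07 (edgeR adjusted p = 0.218). Without mimic replicate 3, the edgeR adjusted p was 0.00956 for PLEC and 0.0421 for ERBIN. With the replicate number as a block these values were 0.0124 and 0.00898. edgeR also called ERBIN with no filter on low counts, without mimic replicate 1 and without NC replicate 3, at adjusted p-values of 0.0344, 0.035 and 0.0409. The highest edgeR adjusted p with 1 library left out was 0.653 for PLEC and 0.347 for ERBIN. COL17A1, the transmembrane collagen of mature hemidesmosomes, was scarce in both groups, at 1.49 ± 0.117 and 1.31 ± 0.248 CPM. CD151 overlaps an uncharacterised locus.

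Inside the cell, integrins are switched on by talins and kindlins and coupled to actin by vinculin and the complex of ILK, PINCH and parvin. Of 18 tested genes of this kind, 4 rose and none fell, with a median log2 fold change of 0.05. The share called was 22.2%, against 6.45% over all tested genes. The number called higher depended on the setting, at 3 without mimic replicate 1 and 6 with the replicate number as a block. TLN2, the less common talin, rose 1.48-fold, from 20.5 ± 0.300 to 30.4 ± 1.27 CPM (SD, n = 3 per group; edgeR adjusted p = 0.00017). FERMT1, the kindlin of epithelia, rose 1.39-fold, VCL, which encodes vinculin, 1.25-fold and LIMS2, a PINCH protein, 1.36-fold. LIMS2 overlaps GPR17 and lost its call without mimic replicate 1, mimic replicate 2, NC replicate 1 or NC replicate 3, at edgeR adjusted p-values of 0.119, 0.0772, 0.0777 and 0.106. The kindlin of mesenchymal cells, FERMT2, stood at −0.15 on the log2 scale (edgeR adjusted p = 0.235), and PTK2, the focal adhesion kinase, at 0.0030 (edgeR adjusted p = 0.989). FERMT2 and PTK2 were named after their values were seen.

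Some proteins sit beside integrins in the membrane and bind them laterally. Of 11 tested lateral partners 2 fell and 9 did not pass, with a median log2 fold change of −0.12. The share called was 18.2%, against 6.45% over all tested genes. The 2 were the tetraspanins CD9, which fell by 15.9%, and CD63, which fell by 14.7%, with edgeR adjusted p-values of 0.0255 and 0.0331. Neither was called without mimic replicate 2 or without NC replicate 1, where the edgeR adjusted p was 0.199 and 0.199 for CD9 and 0.182 and 0.22 for CD63. CD9 also missed the threshold without NC replicate 3, at an edgeR adjusted p of 0.0545, as did CD63 without NC replicate 2, at 0.0583.

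Matrix receptors outside the integrin family gave no call in the main edgeR fit among 11 tested genes, and none in DESeq2. In the main edgeR fit 5 had an unadjusted p under 0.05, as had 2263 of all 12217 tested genes. Over the 11 genes the median was −0.06 on the log2 scale. Among the 5, SDC1, an epithelial syndecan, had a log2 fold change of 0.25 ± 0.09 (edgeR adjusted p = 0.103) and BCAM, a receptor of the laminin chain LAMA5, 0.19 ± 0.07 (edgeR adjusted p = 0.118). On the other side of 0 were CSPG4, a chondroitin sulfate proteoglycan, at −0.25 ± 0.10 (edgeR adjusted p = 0.171), and CD44, the hyaluronan receptor, at −0.15 ± 0.07 (edgeR adjusted p = 0.22). The collagen receptor kinases DDR1 and DDR2, named after their values were seen, had −0.06 and −0.19. Without mimic replicate 3, SDC1 had an edgeR adjusted p of 0.00941, and without NC replicate 2 one of 0.00914. The list then had 1 higher and 2 lower calls in each case. With the replicate number as a block it had 2 higher and 1 lower. Those were SDC1 and BCAM, higher at edgeR adjusted p-values of 0.0179 and 0.0411, and CSPG4, lower at 0.0168.

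Integrins cycle between the surface and endosomes. Of 15 tested trafficking genes 1 rose and 14 did not pass, with a median log2 fold change of 0.04. The share called, 6.67%, was near the 6.45% over all tested genes. The gene that rose was RAB11FIP1, which encodes the Rab coupling protein that returns ITGB1 integrins to the surface. It was at 131, 123 and 117 CPM in mimic replicates 1 to 3 and at 74.7, 78.8 and 83.2 CPM in NC replicates 1 to 3, a 1.57-fold rise (edgeR adjusted p = 2.267e-06). RAB4A, of the fast recycling route, stood at 0.30 ± 0.10 on the log2 scale (edgeR adjusted p = 0.0718). With the replicate number as a block it was called, at an edgeR adjusted p of 0.0292, and the list had 3 higher calls.

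**Figure D4:**
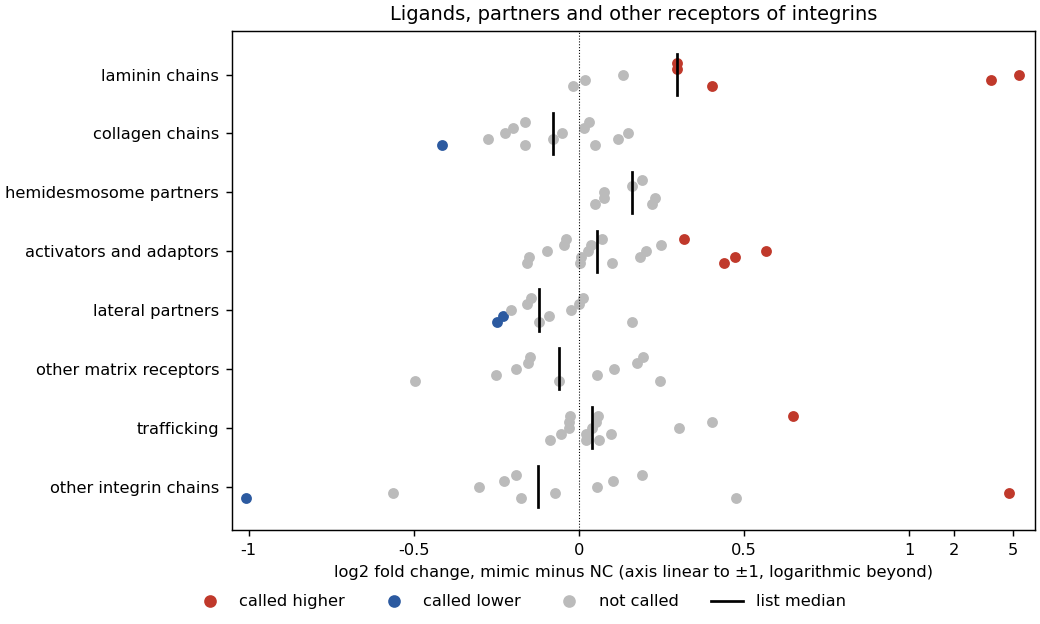
Log2 fold change of mimic over NC (horizontal axis, linear to ±1 and logarithmic beyond) for each tested gene of 8 lists; red genes were called higher, blue lower, grey not called, and black bars are list medians. Laminin chains hold 5 red genes (62.5% called). Collagen chains hold 1 blue and no red gene, a called share of 7.69%, near the 6.45% over all tested genes.

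The genes whose pattern over the 6 libraries was nearest to each chain that rose were found by the root mean square difference of log2 levels, each centred on its own mean, among 10899 genes. For ITGA2 the nearest was PKP2, a desmosomal plakophilin, at 0.079 log2 units, followed by YBX2, a germ cell RNA-binding protein, at 0.086 and FHL1, a LIM domain protein of muscle, at 0.095. PKP2 was at 72.7, 79.6 and 64.8 CPM in mimic replicates 1 to 3 and at 42.3, 41.0 and 37.0 CPM in NC replicates 1 to 3. As for ITGA2, mimic replicate 2 was the highest library and replicate 3 the lowest of each group. PKP2 was chosen by its likeness over these same libraries, so the shared order is no further result. For ITGA3 they were SVIL, an actin-binding supervillin, at 0.025, LIF, a cytokine of the interleukin-6 family needed for implantation in mice, at 0.040 and AOC2, an amine oxidase, at 0.047. For ITGB4 they were TMEM139, a membrane protein, at 0.10, NPPB, the precursor of B-type natriuretic peptide, at 0.13 and CALCB, which encodes a calcitonin gene-related peptide, at 0.14. These distances are a description over 6 libraries.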

How the data were processed

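Per the file headers, the deposited values are raw counts per gene in 3 mimic and 3 NC libraries of BEND cells, beside symbols and annotation terms. Per the labels' protocols, TRIzol served for extraction and a stranded TruSeq mRNA kit for the libraries. The submitters' processing notes name Trimmomatic, HISAT2 and HTSeq; genome build, annotation, strand setting: not given in the sources used here. Groups and replicate numbers came from the titles. Symbols stored as dates, 26 in all, were restored through their GeneID in a RefSeq gene table (ARS-UCD2.0), which held 97.8% of the genes and gave overlapping neighbours.

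Genes were kept by filterByExpr (minimum count 10, minimum total 15) and tested with edgeR 4.0.16 (limma 3.58.1, R 4.3.3; TMM, robust quasi-likelihood F test, Benjamini-Hochberg over all 12217 genes). The biological coefficient of variation was 7.18%. SE is the log2 fold change over the square root of F, and 95% intervals use its t quantile. Ratios of chains had 0.5 reads added to each count, and the nearest genes 0.5 CPM and a minimum mean log2 CPM of 1. The code was tested on simulated data.

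Alternatives were RLE and upper quartile scaling, no filter, a stricter filter (3 libraries with a CPM of 1 or more), limma-voom, DESeq2 1.42.0, a block for the replicate number, and the omission of each library. Named genes are the 6 chains, up to 4 genes per list with the smallest p, overlapping genes, nearest genes, ZEB1, ZEB2 and CDH1, and others marked as named after their values were seen. Not all genes that this rule selects are reported here. The chains and lists were chosen with earlier results of these data known. Promoter and protein sequences were not analysed here.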

Additional observations from a re-analysis of the deposited data

How the results depend on the processing

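Each of the 6 chains kept its direction and its side of the threshold in all 13 alternatives, with log2 fold changes of 1.57 to 1.81 for ITGB4, 0.94 to 1.10 for ITGA2, 0.51 to 0.65 for ITGA3, 0.07 to 0.17 for ITGA6, 0.08 to 0.17 for ITGA1 and −0.07 to −0.03 for ITGB1. The highest edgeR adjusted p was 8.885e-07 for ITGB4, 0.000165 for ITGA2 and 0.000344 for ITGA3. The differences of the 8 ratios kept their sign with 5 reads added to each count and without each library, and moved by less than the SD pooled over both groups. Set against the smaller SD of the NC libraries alone, some moved further: without mimic replicate 1, ITGB4/ITGA6 went from 1.54 to 1.39, ITGA3/ITGB1 from 0.65 to 0.54 and ITGA3/ITGA6 from 0.46 to 0.34, where the NC SD was 0.12, 0.065 and 0.038. The numbers of genes called over the whole table depended on the libraries, from 275 to 731 higher and from 82 to 414 lower when 1 library was left out, against 525 and 263 with all. A chi-square per degree of freedom described how far the counts of 2 libraries differed. It was 8.28 between mimic replicate 3 and NC replicate 3, and 13.6 to 21.3 for the other pairs across groups. Within groups it reached 11.5, between mimic replicates 1 and 3, and 10.4, between NC replicates 2 and 3. With the replicate number as a block, 816 genes were called higher and 496 lower. Same-numbered libraries had correlations of their deviations from the group means of −0.0698, 0.157 and 0.231. Mimic replicates 2 and 3 correlated best with the NC library of their own number, but mimic replicate 1 with NC replicate 2, at 0.214. Whether the numbers mark pairs is unknown here, and the main fit did not use them. The block changed no call of the 6 chains. CD68, a macrophage marker at under 1 CPM on average and not called, had a log2 fold change of 0.20 that ranged from −0.0016 without mimic replicate 2 to 0.37. Among the other named genes, 54 results lost a call and 45 gained one over all alternatives, and 782 were the same; the cause was not tested. ITGB6, with 2 reads over the NC libraries, had log2 fold changes from 4.15 to 7.37 when 1 library was left out. The part of depth in such ranges was not tested.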

Other observations

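The deposited annotation places all 6 chains in the pathway of interactions between extracellular matrix and its receptors, a term chosen after the files were seen. Of its 54 tested genes, 15 rose, 4 fell and 35 did not pass, with a median log2 fold change of 0.08. Over all tested genes, 4.30% rose and 2.15% fell. The 15 include ITGA2, ITGA3, ITGB4, ITGB6 and the 5 laminin chains that rose, all counted above. Of those that rose, ITGB6 and LAMB3 passed the filter on low counts only through the mimic libraries. Beside the integrin and laminin chains described above, the genes that rose included ligands and receptors of other kinds. AGRN, the basement membrane proteoglycan agrin, rose from 319 ± 25.1 to 443 ± 47.7 CPM (SD, n = 3 per group; edgeR adjusted p = 0.000321). CD36, a scavenger receptor that binds thrombospondin, rose from 13.7 ± 1.90 to 19.9 ± 0.907 CPM (edgeR adjusted p = 0.00288). SPP1, the integrin ligand osteopontin, rose from 1049 ± 172 to 1422 ± 149 CPM (edgeR adjusted p = 0.014), and missed the threshold without mimic replicate 1, mimic replicate 2 or NC replicate 1, at edgeR adjusted p-values of 0.131, 0.076 and 0.0577. The genes that fell were COL4A6, ITGA8, THBS2 and TNC, the last 2 being matricellular glycoproteins with log2 fold changes of −0.37 and −0.52. THBS2 missed the threshold without mimic replicate 2, NC replicate 1 or NC replicate 3, at edgeR adjusted p-values of 0.258, 0.0759 and 0.174. These genes were named after their values were seen. Other annotation terms were also chosen after the files were seen. Laminin binding had 1 higher and 0 lower of 11 tested genes, and collagen binding 2 higher and 5 lower of 29. Integrin complex had 3 higher and 0 lower of 13, and hemidesmosome assembly 2 higher and 0 lower of 8. Their rises include ITGA2, ITGB4, ITGB6 and LAMB3, counted above.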
